A study of Mus musculus with 2 samples.

Results

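S100a8, S100a9, Retnlg, G0s2, Ngp, Lcn2, Csf3r and Camp are 8 genes named by hand for their place in neutrophils, and all 8 were among the 21041 genes of a single-cell RNA matrix of mouse colon adenomas. The tumours were distal colon adenomas of Apcmin;LSL-mTERT mice aged 25 weeks, from a series that sampled a G4+T and a G0+T tumour group with 1 library each. Apcmin is a truncating allele of the Apc tumour suppressor, and LSL-mTERT is a telomerase transgene silent until Cre removes a stop cassette; neither the driver of Cre nor the number of tumours in a library is stated in the labels. The authors labelled every cell by a type and a class of chromosomal instability, CIN_high (6189 cells) or CIN_low (7908 cells), and each class was 1 library. Cell names begin with G0 in both libraries, so the classes were not assigned to G4+T or G0+T, and every comparison sets the CIN_high library over the CIN_low library with no test, since each class has 1 library and cells are not replicates.

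S100a8 and S100a9 encode the subunits of calprotectin, the zinc- and manganese-binding protein that fills the neutrophil cytosol. Ngp, Camp and Lcn2 encode proteins of the specific granules: neutrophilic granule protein, the cathelicidin antimicrobial peptide, and lipocalin-2, which withholds iron by binding bacterial siderophores. Granule proteins are made in turn as neutrophils mature in bone marrow, so mature cells carry the proteins of transcripts they no longer make. Csf3r is the receptor for granulocyte colony-stimulating factor, Retnlg is a resistin-like protein of rodent myeloid cells, and G0s2 inhibits the lipase Pnpla2. Inflamed intestinal epithelium is known to make Lcn2, and neutrophil transcripts are abundant enough to spread as free RNA into droplets that hold other cells.

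S100a8 (chromosome 3, 90668978 to 90670035, plus strand) and S100a9 (chromosome 3, 90692632 to 90695721, minus strand) lie 22596 bases apart in mm10. Ngp (chromosome 9, 110419747 to 110423012, plus strand) and Camp (chromosome 9, 109847379 to 109849617, minus strand) lie 570129 bases apart. Lcn2 is at chromosome 2, 32384633 to 32388252, minus strand, and Csf3r at chromosome 4, 126024550 to 126044440, plus strand. Retnlg is at chromosome 16, 48872621 to 48874496, plus strand, and G0s2 at chromosome 1, 193272161 to 193273217, minus strand. The 300 bases around the RefSeq transcript start (250 before and 50 after, GRCm38.p6) are given for the calprotectin pair, the measure of neutrophil RNA used throughout, and for Lcn2, the member with the largest part of its UMIs in epithelium. Each is written 5′ to 3′ on the gene's strand, with capitals for matches to the motifs named after them. The windows are chr3:90668821-90669120 (S100a8, plus strand), chr3:90695672-90695971 (S100a9, minus strand) and chr2:32387690-32387989 (Lcn2, minus strand).

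S100a8: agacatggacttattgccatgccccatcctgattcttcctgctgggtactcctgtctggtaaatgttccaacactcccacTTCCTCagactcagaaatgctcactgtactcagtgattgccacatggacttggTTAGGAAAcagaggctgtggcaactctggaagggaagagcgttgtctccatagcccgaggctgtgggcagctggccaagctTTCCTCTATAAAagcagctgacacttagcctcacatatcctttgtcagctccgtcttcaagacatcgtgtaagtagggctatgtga

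S100a9: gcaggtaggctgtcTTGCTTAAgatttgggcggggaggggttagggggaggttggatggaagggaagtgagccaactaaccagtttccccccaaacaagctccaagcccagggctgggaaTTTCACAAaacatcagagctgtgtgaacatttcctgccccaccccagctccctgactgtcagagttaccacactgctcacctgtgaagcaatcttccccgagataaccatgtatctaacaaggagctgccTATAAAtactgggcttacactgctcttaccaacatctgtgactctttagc

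Lcn2: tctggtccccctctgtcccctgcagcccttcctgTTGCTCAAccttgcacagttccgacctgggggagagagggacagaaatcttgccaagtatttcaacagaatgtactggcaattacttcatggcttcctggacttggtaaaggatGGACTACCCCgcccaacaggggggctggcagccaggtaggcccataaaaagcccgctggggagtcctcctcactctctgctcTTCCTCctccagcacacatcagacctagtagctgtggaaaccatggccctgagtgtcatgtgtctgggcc

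The C/EBP pattern TTNNGNAA, searched on both strands like the others, was found once before the start of S100a8 and of Lcn2, and at 2 places before that of S100a9. It was found in 5 of the 8 member windows (also Retnlg and Ngp), against 40.7% of 32851 RefSeq promoter windows. The NF-kB pattern GGGNNNNNCC was present in the Lcn2 window, starting 102 bases before the transcript start, and in neither calprotectin window; 4 of 8 members held it, against 50.8% of all windows. The PU.1 core GAGGAA occurred in S100a8, Lcn2 and Csf3r (28.3% of all windows), and TATAAA in S100a8 and S100a9 (13.6% of all windows). The TATAAA of S100a8 directly follows a PU.1 core match and shares no base with it. A match is a run of letters, not a measured binding site.

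The CIN_high library held 51868113 unique molecular identifiers (UMIs, each 1 captured RNA molecule), with a median of 6448 per cell, and the CIN_low library held 74733715, with a median of 7154. The authors' types were myeloid, epithelial, endothelial, pericyte, fibroblast, T and NK, B and unknown. Each named type except myeloid had its own markers in more cells than the other types did. The myeloid type was checked with leukocyte markers only, found on average in 91.0% (CIN_high) and 93.1% (CIN_low) of its cells, against 14.2% and 28.7% of others. For epithelium, 7 markers were found on average in 94.3% of epithelial and 7.99% of other cells in CIN_high, and in 95.4% and 12.1% in CIN_low. The authors gave no neutrophil label, so myeloid cells were clustered with the 8 members left out, and 3 clusters were called neutrophil-like from 12 other neutrophil markers. They held 558 of 6189 CIN_high cells (9.02%, exact 95% binomial interval 8.31 to 9.76) and 1739 of 7908 CIN_low cells (22.0%, 21.1 to 22.9). As shares of myeloid cells these were 19.0% (17.6 to 20.5) and 32.5% (31.3 to 33.8). All intervals cover counting error only, and 11 cell barcodes occurred in both libraries.

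Neutrophil-like cells held most UMIs of all 8 members in both libraries, and Csf3r and Lcn2 had the largest parts elsewhere. Neutrophil-like cells held 89.9% of the 165608 S100a8 UMIs of CIN_high and 88.9% of the 723172 of CIN_low. The same shares were 90.6% and 89.5% for S100a9, 92.3% and 89.6% for Retnlg, and 82.2% and 88.1% for G0s2. Ngp (96.4% and 93.8%) and Camp (96.8% and 93.2%) were the most concentrated. Csf3r had 69.0% (CIN_high) and 71.1% (CIN_low) of its UMIs in neutrophil-like cells, with 25.0% and 24.2% in other myeloid cells. Lcn2 had 54.8% and 77.0% there, with 33.7% and 13.4% in epithelium. G0s2 had 9.13% of its CIN_high UMIs in fibroblasts and 0.0377% of its CIN_low UMIs, where the library had 966 and 21 fibroblasts.

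**Figure D1:**
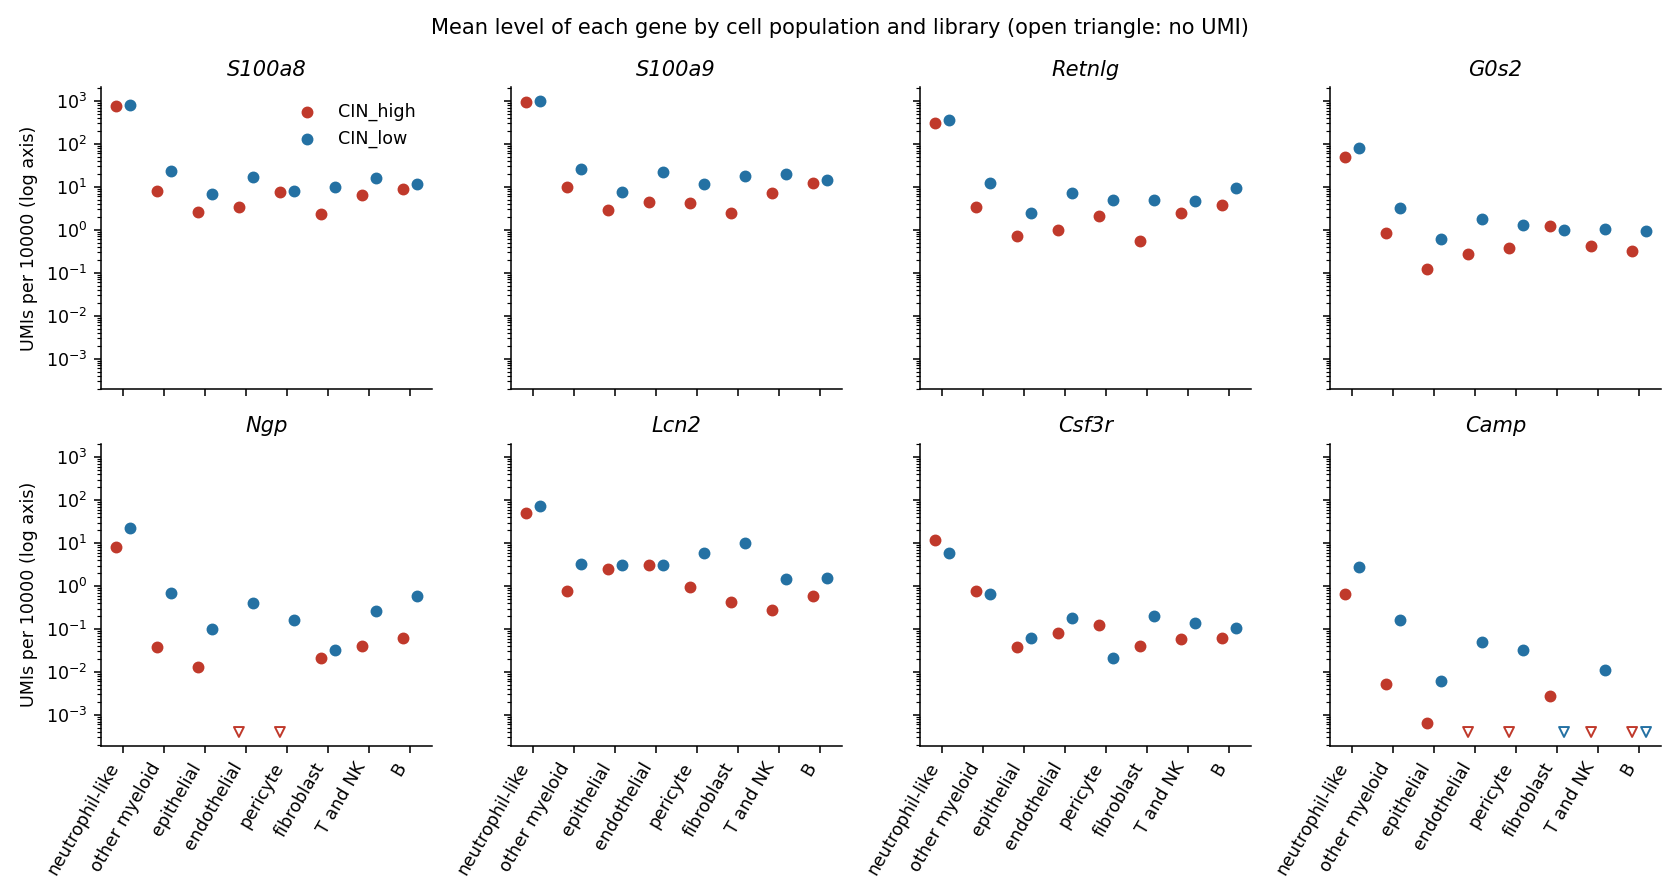
Mean level (UMIs per 10000 of a cell, log axis) of the 8 genes in each cell population, CIN_high in red left of CIN_low in blue; an open triangle marks no UMI. S100a8 stood at 784 and 819 per 10000 in neutrophil-like cells and under 25 in every other population shown, while the Lcn2 points of epithelium (2.57 and 3.13) stood above its T and NK points (0.279 and 1.45).

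Calprotectin and Retnlg were at near-equal levels in neutrophil-like cells of both libraries, 4 other members were lower in CIN_high, and the receptor gene Csf3r was higher. Levels are means over cells of UMIs per 10000. S100a8 stood at 784 in CIN_high and 819 in CIN_low (log2 ratio -0.06), S100a9 at 949 and 1000 (-0.08), and Retnlg at 313 and 353 (-0.17). In whole molecules the median neutrophil-like cell held 245 S100a8 UMIs in CIN_high and 339 in CIN_low, at median depths of 3044 and 3954 UMIs. The calprotectin pair thus took up nearly the same part of a cell's RNA in either library.

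G0s2, the lipase inhibitor, stood at 48.9 in CIN_high and 80.7 in CIN_low (log2 ratio -0.72). Lcn2 stood at 49.8 and 75.3 (-0.60), Ngp at 8.06 and 22.3 (-1.47) and Camp at 0.646 and 2.84 (-2.13). Csf3r stood at 11.6 in CIN_high and 5.82 in CIN_low (0.99; exact 95% interval of the ratio of summed UMIs 1.89 to 2.12). With a line at 1.5-fold, 4 of 8 members were lower, where 10.3% of 5745 measured genes were, and 1 was higher, where 27.9% of genes were. Over these genes the median log2 ratio was 0.27, and over the members it was -0.39.

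The 3 neutrophil-like clusters were shared unequally by the libraries. With 1 library per class, a cell state and a feature of a library cannot be told apart in any of the 3. A cluster led by Ltb, Ripor2 and Entpd3 held 316 CIN_high and 76 CIN_low cells. Another led by Prok2, Ifitm6 and Mmp8 held 155 and 913 cells, and the last, led by Hcar2, Serpinb2 and Acod1, genes of activated myeloid cells, held 87 and 750. S100a8 differed little between libraries in each, with log2 ratios of 0.06 in the Ltb-led, -0.06 in the Prok2-led and 0.00 in the Hcar2-led cluster. G0s2 was lower in CIN_high in all 3 (-0.74, -0.55 and -0.48 in the same order), and Csf3r higher in all 3 (0.38, 0.50 and 1.15). Of these values, only G0s2 in the Ltb-led and Csf3r in the Hcar2-led cluster were past 1.5-fold. The median log2 ratio over all genes was -0.10, 0.08 and 0.38 in the same order.

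Ngp differed by cluster, at 2.52 and 2.62 per 10000 in the Ltb-led cluster (CIN_high and CIN_low; log2 ratio -0.06), 22.1 and 30.2 in the Prok2-led (-0.45), and 3.13 and 14.6 in the Hcar2-led (-2.23). With each library given the same mix of clusters, an alternative added after the data were seen, 2 members and not 4 were lower. Most Ngp and Camp UMIs lay in a few cells, whereas those of Lcn2 did not. Clustering at a finer resolution set apart 38 CIN_high and 129 CIN_low cells led by Ltf, the lactoferrin gene of specific granules, together with Itgb2l and Cd177. These cells carried 59.4% and 52.4% of the library's Ngp UMIs, 87.1% and 85.0% of its Camp UMIs, and 9.88% and 15.3% of its Lcn2 UMIs. In them Ngp stood at 62.6 and 141 per 10000, Camp at 8.0 and 34.6, and S100a8 at 1166 and 1118.

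**Figure D2:**
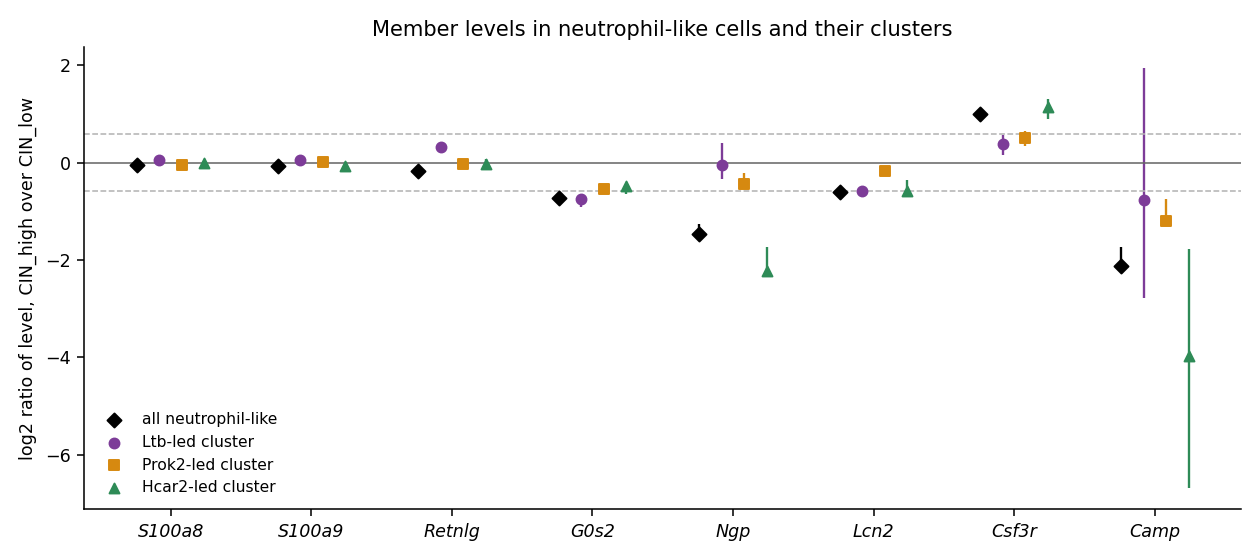
Log2 ratio of the mean level, CIN_high over CIN_low, for each gene in all neutrophil-like cells and in the 3 clusters; vertical lines are exact 95% intervals of the ratio of summed UMIs and cover counting error only, and dashed lines mark 1.5-fold. S100a8 and S100a9 lie at 0 within 0.08 in each, Csf3r lies above 0 in each, and Ngp runs from -0.06 in the Ltb-led to -2.23 in the Hcar2-led cluster.

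Outside the myeloid cells, calprotectin transcripts were found in every type at like shares of cells, which differed between libraries far more than between types. An S100a8 UMI was seen in 38.4% of epithelial cells of the CIN_high library (median depth 14032 UMIs) and 88.3% of those of the CIN_low library (15364). T and NK cells, which are not known to make calprotectin, had one in 32.9% (depth 3442) and 83.3% (3666). The shares were 33.4% and 86.2% in endothelial cells, 31.7% and 76.2% in fibroblasts, 33.7% and 82.8% in pericytes, and 37.5% and 86.0% in B cells. The median cell of each of these non-myeloid types held 0 S100a8 UMIs in CIN_high and 2 in CIN_low. The share of T and NK cells at 0 corresponds to 0.399 S100a8 UMIs per droplet in CIN_high and 1.79 in CIN_low, and that of epithelial cells to 0.485 and 2.15. Epithelium at large thus showed S100a8 in a share of cells close to that of a type that should lack it, at a greater depth. How much of it is free RNA and how much epithelial cells make was not tested.

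The share of epithelial cells with S100a8 rose with depth in both libraries, and its mean UMIs per droplet rose unevenly. Epithelial cells without the S100a8/s100a9+ subtype were cut into quartiles of depth, with median UMIs of 6166 to 27906 in CIN_high and 7148 to 30844 in CIN_low. The S100a8 share over the quartiles was 32.1%, 33.6%, 37.9% and 48.6% in CIN_high, and 84.2%, 87.2%, 88.4% and 92.7% in CIN_low. Mean S100a8 UMIs per droplet were 0.514, 1.31, 0.939 and 1.69 in CIN_high and 2.46, 4.02, 2.50 and 8.28 in CIN_low, and the CIN_low share is so near its ceiling that it can show little change. Epcam, an epithelial adhesion gene, went up with depth from a mean of 13.7 UMIs in the lowest quartile to 86.8 in the highest in CIN_high, and 16.3 to 102 in CIN_low. Its share of cells was already 98.2% (CIN_high) and 97.6% (CIN_low) in the lowest quartile, so the shares of S100a8 and Epcam cannot be compared over depth. After thinning every cell to 2000 UMIs, S100a8 was seen in 9.59% (CIN_high) and 30.6% (CIN_low) of epithelial cells, against 17.9% and 57.4% of lymphocytes labelled T and NK (33 and 9 epithelial, 55 and 90 T and NK cells were too shallow). Lcn2 showed the other order, at 22.6% and 26.4% of thinned epithelial cells, against 1.68% and 10.5% of those lymphocytes. Means were carried by few droplets: the top 5% of cells held 73.7% to 96.9% of the S100a8 UMIs of the types named above.

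**Figure D3:**
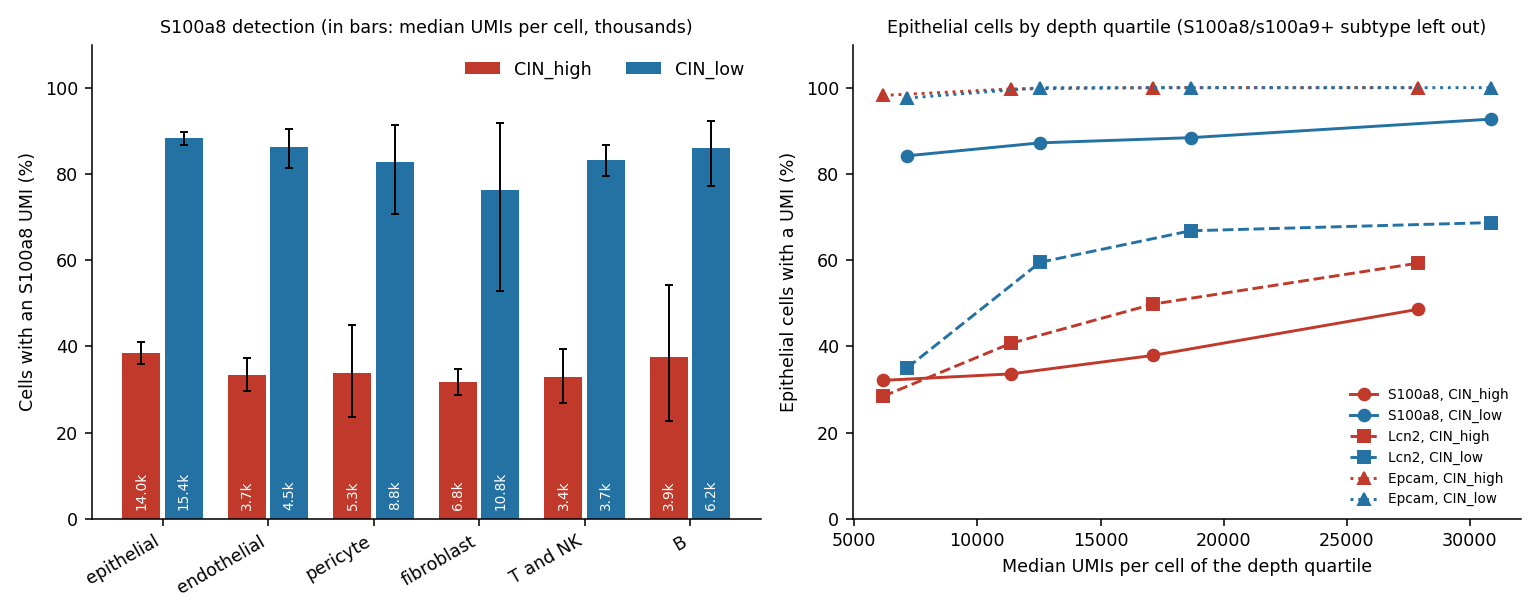
Left, share of cells with an S100a8 UMI by type, with exact 95% binomial intervals and the median depth written in each bar (k stands for 1000 UMIs); right, share of epithelial cells with a UMI of S100a8, Lcn2 or Epcam in 4 depth quartiles. The CIN_high bars lie between 31.7% and 38.4% and the CIN_low bars between 76.2% and 88.3% in all types, while Lcn2 detection runs with depth, 28.4% to 59.3% in CIN_high and 35.0% to 68.7% in CIN_low.

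Set against each other, the libraries differed in most members in epithelial, endothelial, myeloid and T and NK cells, in the direction of the neutrophil-like shares given above. In epithelium, 6 of the 7 measured members were at least 1.5-fold lower in CIN_high (7.70% of 13304 genes were), and Camp was too rare to measure, with 2 UMIs in CIN_high and 13 in CIN_low. S100a8 stood at 2.54 in CIN_high and 6.83 in CIN_low (log2 ratio -1.42), S100a9 at 2.83 and 7.52 (-1.41), and Retnlg at 0.736 and 2.46 (-1.74). G0s2 stood at 0.120 and 0.620 (-2.37), Ngp at 0.0131 and 0.102 (-2.95), and Csf3r at 0.0376 and 0.0631 (-0.75), on 67 and 180 UMIs. Lcn2 was the exception, at 2.57 and 3.13 (-0.28). Without the S100a8/s100a9+ subtype 5 of the 7 were lower and the median log2 ratio was -1.48, against -1.42 with it. When the subtypes were given the same mix in both libraries, which gives the 8 CIN_high cells of that subtype (S100a8 at 251 per 10000) more weight, the median was -0.33 and 2 were lower. Subtracting the mean UMIs per droplet of T and NK cells left a positive level in both libraries for Lcn2 and Csf3r only, so the other members gave no ratio.

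Among T and NK cells, 7 of 7 measured members were lower in CIN_high (16.8% of genes), and in endothelial cells 6 of 7 (19.6% of genes), with Lcn2 at 3.04 in CIN_high and 3.05 in CIN_low. In myeloid cells as labelled 7 of 8 were lower (3.30% of genes), with Csf3r at 2.84 and 2.34. The myeloid cells outside the neutrophil-like clusters had 6 of 7 lower (2.71% of genes); they include 2 left-out clusters with neutrophil markers, of 5 and 46 CIN_high against 86 and 111 CIN_low cells, and the top 5% of cells held 83.3% and 81.7% of their S100a8. Cancer_cell_1, the largest epithelial subtype with 549 CIN_high and 710 CIN_low cells, had 6 of 7 lower (8.48% of genes), with Lcn2 at 4.20 and 3.79 (0.15). The p57+ cancer cells had S100a8 at 0.762 and 2.05 (-1.43), a smaller difference in Retnlg at 0.479 and 0.688 (-0.52), and Csf3r at 0.0256 and 0.0128 on 2 and 5 UMIs (1.00). Pericytes, with 83 CIN_high and 58 CIN_low cells, had 5 of 8 lower (23.3% of genes), with S100a8 at 7.44 and 7.88 (-0.08), Csf3r at 0.127 and 0.0209 on 6 and 2 UMIs (2.60), and Camp at 0 and 3 UMIs. Fibroblasts and B cells were not set against each other because a library held under 50 of them. The share of neutrophil-like cells and the S100a8 per droplet of T and NK cells were both lower in the CIN_high library. Their part in these ratios was not tested.

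If free RNA of one source carried its genes in 1 ratio, that ratio would be like that of the source. Each member was therefore divided by calprotectin (S100a8 and S100a9 UMIs together) and set against the same ratio in neutrophil-like cells of that library. Retnlg followed calprotectin in epithelium, at 0.787 times the neutrophil-like ratio (0.742 to 0.834) in CIN_high and 0.983 times (0.961 to 1.01) in CIN_low. G0s2 stood at 0.892 times (0.770 to 1.03) and 1.06 times (1.01 to 1.12). The 36 CIN_low cells of the S100a8/s100a9+ subtype held 25390 of the 40795 calprotectin UMIs of CIN_low epithelium. Without the subtype Retnlg stood at 0.778 times (0.704 to 0.859) in CIN_high and 0.777 times (0.745 to 0.811) in CIN_low, and G0s2 at 1.21 times (0.977 to 1.49) and 0.806 times (0.737 to 0.879). Ngp fell below the ratio, at 0.167 times (0.0764 to 0.318) on 9 UMIs and 0.457 times (0.405 to 0.513) on 288. T and NK cells had Lcn2 at 0.637 times (0.441 to 0.890) and 0.872 times (0.775 to 0.979). Their Ngp stood at 0.505 times (0.185 to 1.10) on 6 UMIs and 0.325 times (0.233 to 0.441) on 41. Retnlg stood at 0.998 times (0.892 to 1.11) and 0.720 times (0.678 to 0.765) in them, and G0s2 at 1.08 times (0.809 to 1.42) and 0.772 times (0.681 to 0.871). A ratio of Ngp, Retnlg or G0s2 below that of neutrophil-like cells was thus found in CIN_low T and NK cells too.

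Lcn2 was far above that ratio in tumour epithelium. In Cancer_cell_1 it stood at 222 times the neutrophil-like ratio (214 to 231) in CIN_high, with 3840 Lcn2 and 596 calprotectin UMIs, and at 32.4 times (31.5 to 33.4) in CIN_low, with 4758 and 3581. Its level there was 4.20 per 10000 in CIN_high and 3.79 in CIN_low, with a UMI in 61.7% and 69.9% of cells. The p57+ cancer cells had 3.75 and 4.63 per 10000 (118 and 31.8 times the ratio), in 36.4% and 55.0% of cells. Proliferating cells had 1.85 and 1.48 (151 and 11.1 times), and Stem_cell_1 had 0.961 and 1.37 (22.6 and 11.8 times).

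The remaining subtypes ordered below or beside these: Complement+ stem cells had Lcn2 at 1.06 in CIN_high and 2.29 in CIN_low, and the Igfbp+ cells, 25 cells found in CIN_high alone, had 1.07. Enterocytes had 0.190 and 0.777, in 9.35% and 29.6% of cells, and secretory cells 0.188 and 0.372. In enterocytes the ratio to calprotectin was 0.601 times (0.344 to 0.977) and 0.728 times (0.617 to 0.854) that of neutrophil-like cells. It counts the calprotectin of the enterocytes described below, some with much calprotectin and almost no Retnlg. The ratio therefore cannot show whether enterocyte Lcn2 was above what neutrophil RNA would bring. Over all epithelium Lcn2 stood at 24.0 and 6.01 times the ratio, and without the S100a8/s100a9+ subtype at 66.4 and 14 times.

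Other types had departures of their own. Endothelial cells had Lcn2 at 8.62 times the neutrophil-like ratio (7.96 to 9.32) in CIN_high and 1.63 times (1.47 to 1.81) in CIN_low, in 27.9% and 24.3% of cells. Pericytes had Lcn2 at 4.23 and 9.46 times, and fibroblasts at 2.86 and 11.2 times. Their CIN_low levels, 5.76 per 10000 in 58 pericytes and 9.91 in 21 fibroblasts, were above the 3.79 of Cancer_cell_1. Their CIN_high levels, 0.966 and 0.436, were below the 4.20 of Cancer_cell_1. Lcn2 above the ratio was thus not confined to epithelium and endothelium. Fibroblasts of CIN_high had G0s2 at 6.24 times (5.83 to 6.68) and in 38.9% of 966 cells; the 21 CIN_low fibroblasts had 0.859 times (0.556 to 1.27), in 38.1% of cells. Csf3r in the myeloid cells outside the neutrophil-like clusters stood at 8.25 times (7.54 to 9.03) and 4.29 times (4.02 to 4.57). A Csf3r UMI was found in 20.2% and 23.9% of those cells, against 2.99% and 5.31% of T and NK cells. Within them the cluster led by Ccl8, Vcam1 and Mrc1, genes of tissue macrophages, had Csf3r in 29.6% of 382 CIN_high cells and 31.2% of 581 CIN_low cells, and that led by Mgl2 and C1qb in 25.0% and 30.8%.

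**Figure D4:**
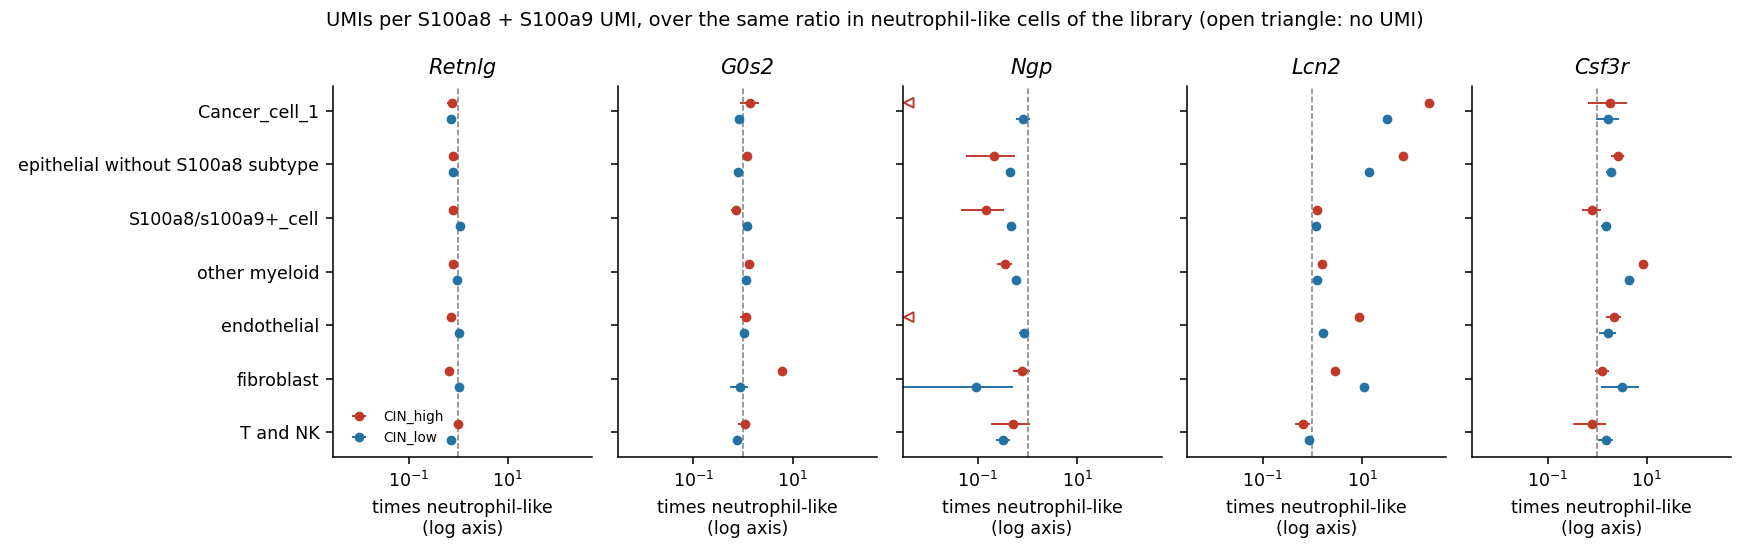
UMIs of 5 genes per calprotectin UMI in 7 populations, as a multiple of the same ratio in neutrophil-like cells of the library (log axis, dashed line at 1, exact 95% intervals; an open triangle marks no UMI). Retnlg stays between 0.647 and 1.11, whereas Lcn2 reaches 222 in CIN_high and 32.4 in CIN_low in Cancer_cell_1, G0s2 reaches 6.24 in CIN_high fibroblasts, and Csf3r 8.25 and 4.29 in other myeloid cells.

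The epithelial subtype that the authors named S100a8/s100a9+ comprised 8 CIN_high and 36 CIN_low cells and carried whole neutrophil transcript sets. Its cells held a mean of 319 and 345 S100a8 UMIs, and 113 and 105 S100a9 UMIs for each 100 of S100a8, against 118 and 120 in neutrophil-like cells. All 7 epithelial markers were found in most of the cells, summing to a mean of 87.6 and 135 UMIs per cell, against 126 and 148 in Cancer_cell_1. Of 12 neutrophil markers other than the members 10 were likewise found in most of the cells, summing to 44.0 and 60.8 UMIs per cell, against 41.2 and 58.1 in neutrophil-like cells. The 4 leukocyte markers summed to 28.1 and 27.2 UMIs per cell, against 26.8 and 30.6. Per 10000 UMIs the neutrophil genes were diluted, for example Cxcr2 at 5.57 and 2.61 in the subtype, against 18.6 and 11.7 in neutrophil-like cells. Scrublet, which scores cells by likeness to simulated pairs of cells, marked 87.5% and 66.7% of the subtype as doublets, against 2.29% and 3.15% of all cells. The subtype was not alone in this, since 76.9% and 75.3% of Complement+ stem cells and 52.0% of the Igfbp+ cells were marked too. The data go against reading the name as an epithelial cell type that makes calprotectin alone: its cells held epithelial, neutrophil and leukocyte markers together, each at near the UMIs per cell of its own source, and whether they are joined cells was not tested further.

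Some enterocytes held much calprotectin with little leukocyte RNA and almost no Retnlg. Of 107 CIN_high and 98 CIN_low enterocytes, 4 and 12 held 20 or more calprotectin UMIs with at most 2 UMIs of the leukocyte genes Ptprc, Tyrobp, Fcer1g and Laptm5; these limits were chosen after the values were seen. Only 0.717% and 1.38% of neutrophil-like cells had so few leukocyte UMIs. The 4 CIN_high cells held 88, 50, 25 and 9 S100a8 UMIs and, in the same order, 22, 13, 0 and 11 S100a9 UMIs. The 5 CIN_low cells with most calprotectin held 350, 250, 77, 124 and 76 S100a8 UMIs and 191, 208, 164, 29 and 2 S100a9 UMIs. S100a8 exceeded S100a9 in most of these cells, unlike in neutrophil-like cells.

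Together these enterocytes held 172 S100a8 and 46 S100a9 UMIs in CIN_high (26.7 S100a9 for each 100 S100a8), and 1022 and 682 in CIN_low (66.7 for each 100). Retnlg was nearly missing, with 1 UMI in CIN_high and 10 in CIN_low, or 0.459 and 0.587 for each 100 calprotectin UMIs, against 17.6 and 18.2 in neutrophil-like cells. Ngp and Camp had 0 UMIs in both, Lcn2 had 0 and 5, and none of the 16 cells was marked as a doublet. They held 33.3% of the enterocyte S100a8 UMIs in CIN_high and 39.1% in CIN_low. A further 1 CIN_high and 4 CIN_low enterocytes with as much calprotectin had more leukocyte UMIs, and in them Retnlg was present at 10.6 and 21.4 for each 100. With the calprotectin limit at 10 UMIs there were 6 and 22 such enterocytes, and at 50 UMIs 2 and 6.

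Enterocytes also held Ly6g, otherwise a surface gene of neutrophils, in 66.4% of CIN_high and 60.2% of CIN_low cells, at 4.41 and 4.81 per 10000. Its level was 6.68 and 6.09 in neutrophil-like cells and 0.0339 and 0.0598 in Cancer_cell_1. Outside enterocytes, no endothelial cell or pericyte passed both limits, and 1 CIN_high fibroblast did. In the other epithelial subtypes named here such cells occurred in the CIN_low library alone, 4 in Cancer_cell_1, 3 among proliferating cells and 6 in Stem_cell_1, with S100a9 above S100a8 and Retnlg at 11.3, 8.14 and 1.90 for each 100 calprotectin UMIs. At a limit of 10 UMIs the CIN_low library had 39, 17 and 25 such cells in these subtypes, beside 22 enterocytes.

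**Figure D5:**
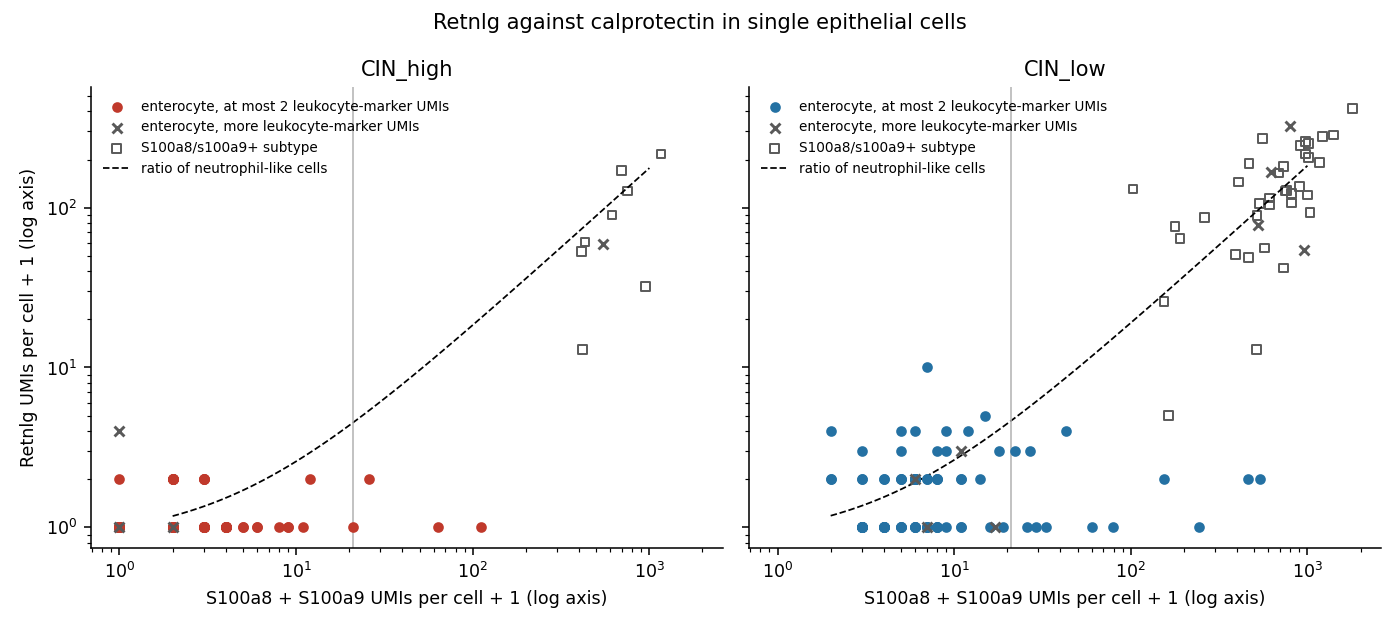
Retnlg against S100a8 plus S100a9 UMIs in single cells (both plus 1, log axes) of the enterocyte and S100a8/s100a9+ subtypes, CIN_high left and CIN_low right; the dashed line is the ratio of neutrophil-like cells and the grey line marks 20 calprotectin UMIs. Cells of the S100a8/s100a9+ subtype scatter about the dashed line, and the 4 CIN_high and 12 CIN_low enterocytes right of the grey line with few leukocyte UMIs hold at most 3 Retnlg UMIs each.

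Lists of genes that work with the members were read in the same way, at the same 1.5-fold line and against the same shares of all genes. Of 13 measured specific and gelatinase granule genes in neutrophil-like cells, 4 were lower in CIN_high (10.3% of all genes were) and 1 higher (27.9% were). The lower ones were Ltf (lactoferrin; 0.647 in CIN_high and 2.93 in CIN_low, log2 ratio -2.18), Chil3, a chitinase-like protein (1.32 and 2.85, -1.11), the collagenase Mmp8 (12.3 and 24.9, -1.01) and the oxidase subunit Cybb (1.21 and 1.93, -0.67). The higher one was Ncf4, another oxidase subunit (2.89 and 1.78, 0.70). Ltf and Mmp8 are therefore on the same side as Ngp and Camp in these cells.

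Of 14 surface and migration genes, 3 were higher and 1 lower in neutrophil-like cells of CIN_high, no more than the 27.9% and 10.3% of all genes. Cxcr4, a receptor for retention in bone marrow, stood at 2.27 in CIN_high and 0.948 in CIN_low (1.26), the selectin ligand Selplg at 6.72 and 3.56 (0.92) and the chemokine receptor Cxcr2 at 18.6 and 11.7 (0.66). Mrgpra2a was lower (1.03 and 1.59, -0.63). Of 4 measured granulocyte transcription factors 3 were higher: Cebpd (2.31 and 0.937, 1.30), Spi1, which encodes PU.1 (7.52 and 4.37, 0.78), and Cebpe on 22 and 32 UMIs (1.60). Csf3, which encodes the ligand of Csf3r, had 7 UMIs in CIN_high and 310 in CIN_low in neutrophil-like cells (-3.25), and Pnpla2, the lipase that G0s2 inhibits, stood at 0.594 and 0.395 (0.59).

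Of 8 cytosolic protease inhibitors in neutrophil-like cells, Stfa1 was higher (0.93) and Stfa3 lower (-1.36). Of 7 other S100 genes S100a10 (-0.97) and S100a4 (-0.96) were lower. Among all genes of these cells 27.9% were higher and 10.3% lower. In epithelium 9 of 12 surface and migration genes, 6 of 13 granule genes and 3 of 5 protease inhibitors were lower in CIN_high. Wfdc21 (-1.71) was among them, and 7.70% of all genes were lower in epithelium. Ltf was higher in epithelium (1.58), against its direction in neutrophil-like cells. Of 13 inducible defence genes of epithelium, which include Saa and Reg3 genes, 1 was higher (Saa1, 0.68; 4.16% of all genes were) and 1 lower (Saa3, -1.49). Of 9 other S100 genes S100a4 alone was lower there (-1.11). The azurophil granule list had 1 measured gene in epithelium, Mpo (1.38).

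Across 14 type-by-library populations of at least 20 cells, the genes whose log2 levels ran most like S100a8 were S100a9 (Pearson's r 0.984), Wfdc21 (0.983), Retnlg (0.980), Nlrp3 (0.974) and Trem1 (0.974). Those most like Lcn2 were Nampt (0.865), Dhx38 (0.862), Tgm1 (0.861), Slc27a4 (0.853) and F5 (0.850), and S100a8 itself reached 0.664 with Lcn2. The populations share libraries, depth and free RNA, so these values describe the matrix only.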

How the data were processed

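The matrix the authors deposited holds natural log values, ln(1 + UMIs per 10000 of a cell), made with Cell Ranger 2.1.1 and Seurat on mm10 per the submitters' processing notes; filters on cells, the gene annotation and any doublet removal are not stated there. Classes, types and epithelial subtypes are labels the authors deposited per cell. Whole UMIs were recovered from the values (all within 0.01 of a whole number), so levels, depths and exact intervals rest on counts. A gene was measured where at least 2% of cells of 1 side had a UMI, and ratios needed 50 cells per library. Myeloid cells were clustered (Scanpy 1.11.5, Python 3.11.15, 2000 variable genes, 30 components, 15 neighbours, Leiden resolution 1) without the 8 genes; a cluster was neutrophil-like where its neutrophil markers were found on average in 50% or more of cells and 2 times as often as those of any other cell type listed, a rule set after the clusters were seen. A shallow marker-bearing cluster (median depth 1044) and 1 of which 90.1% of cells were marked as doublets stayed out. Scrublet (expected rate 6%) marked cells, which were kept. The 8 genes and all lists were chosen with earlier results of these data known. Genes named by likeness to S100a8 and Lcn2 are the 5 nearest by Pearson's r of log2(level + 0.1), and listed genes past 1.5-fold are named. The ratio steps were tested on simulated data. Promoter windows and transcript starts are RefSeq's. With 1 library per class there is no replicate error, so no difference was tested.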

Additional observations from a re-analysis of the deposited data

Results flagged for a closer look

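Csf3r ran in opposite directions in neutrophil-like and epithelial cells, each on an interval that leaves out equal levels. The log2 ratio of CIN_high over CIN_low was 0.99 in neutrophil-like cells and -0.75 in epithelial cells. The difference between these was not tested, since each class has 1 library. The epithelial value rests on 67 UMIs in CIN_high and 180 in CIN_low, and it was 0.23 with the epithelial subtypes given the same mix in both libraries. With epithelial cells of 20 or more calprotectin UMIs left out it was 0.04, and without the S100a8/s100a9+ subtype -0.07. In neutrophil-like cells the Csf3r ratio was above 0 in each of the 3 clusters (0.38, 0.50 and 1.15), but past 1.5-fold in the Hcar2-led cluster only. The median log2 ratio over all genes of that cluster was 0.38. Lcn2 stood at -0.60 in neutrophil-like cells and at -0.28 over all epithelium. Its ratio was above 0 in Cancer_cell_1 (0.15) and proliferating cells (0.33), both under the 1.5-fold line. It was below 0 in Stem_cell_1 (-0.52), p57+ cancer cells (-0.31) and enterocytes (-2.03).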

How the results depend on the processing

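No paired analysis was possible because each class is 1 library, so the groups share a single replicate number. Of the alternatives bearing on the main comparisons, 46 left the value within its 95% counting interval or the count within 1.5 times, and 39 moved it. The median log2 ratio of the members in epithelium (-1.42) was -1.73 on summed UMIs, -1.83 without cells marked by Scrublet, -1.33 relative to all genes, and -1.58 with no minimum beyond 1 UMI. It was -1.48 without the S100a8/s100a9+ subtype (5 lower), -0.33 with the subtype mix standardised and -0.23 with the mean UMIs per droplet of T and NK cells subtracted, where 2 and 0 members were lower against 6; that subtraction left a positive level in both libraries for Lcn2 and Csf3r only, so the count of 0 covers those alone. It was -1.68 with the level implied by T and NK cells at 0 subtracted. Csf3r in epithelium (-0.75) turned to 0.23 with the subtype mix standardised and to 0.04 without cells of 20 or more calprotectin UMIs. At a 2-fold line 4 members were lower in myeloid cells (7 at 1.5-fold), and in neutrophil-like cells 2 were lower and 0 higher (4 and 1). With the cluster mix standardised 2 were lower in neutrophil-like cells. Shares of all genes were not counted at the 2-fold line, with a standardised mix or after the subtractions. Those member counts therefore have no background to be read against. The neutrophil-like share of CIN_high (9.02%) and CIN_low (22.0%) cells was 9.79% and 23.5% at Leiden resolution 0.5, 9.76% and 23.3% at resolution 2, 11.1% and 27.2% by a marker gate, 10.1% and 25.2% with 3 left-out clusters counted in, and 19.0% and 32.5% of myeloid cells. The mean S100a8 UMIs per droplet of T and NK cells (3.71 in CIN_high, 8.72 in CIN_low) were 2.08 and 4.67 without marked doublets, 1.55 and 3.23 thinned to 2000 UMIs, 0.399 and 1.79 from the share at 0, and 0 and 2.0 as medians; B cells had 12.3 and 7.86, and endothelial cells 1.87 and 9.89. Members above the neutrophil-like ratio to calprotectin in epithelium were 1 in CIN_high (2 without the S100a8/s100a9+ subtype) and 2 in CIN_low (1 with all myeloid cells as the source, 1 without marked doublets, 1 at a 2-fold line). All alternatives on neutrophil-like levels, the calprotectin limit, the left-out clusters and the share at 0 were chosen after seeing the data. The cause of each shift was not tested. Counting error is small for calprotectin and limits Camp and, outside myeloid cells, Ngp and Csf3r.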

Other observations

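The enterocytes with calprotectin and few leukocyte UMIs (4 of CIN_high, 12 of CIN_low) also differed from the other enterocytes in some defence genes, and other such genes split between the libraries. These cells were chosen after their calprotectin was seen, and the genes below were taken from those that led in both libraries or from the defence and S100 lists, so no test was made. Saa1, an acute-phase gene of inflamed epithelium, stood at 93.5 per 10000 in the 4 CIN_high cells against 16.5 in other enterocytes of that library, and at 64.2 against 9.41 in CIN_low. The log2 differences of levels plus 0.1 were 2.49 and 2.76. Arg1, arginase 1, had 3.20 in CIN_high and 3.06 in CIN_low, but a UMI in only 2 of the 4 and 7 of the 12 cells. Nos2, the inducible nitric oxide synthase that uses the substrate of Arg1, had 1.59 and 2.75, and Tgm2, a transglutaminase, 2.07 and 2.90. The hydrogen peroxide producing oxidase Duox2 had 1.38 and 1.39, and its maturation factor Duoxa2 had 1.81 and 3.10. Ly6m (2.82 and 4.24), Clca4a (2.75 and 4.94) and Txnrd1 (1.95 and 2.99) were higher too. Among other S100 genes the differences were positive for S100a10 (0.91 and 1.08), S100a14 (0.99 and 1.46), S100a11 (0.56 and 1.34), S100a16 (0.54 and 0.88) and S100a6 (0.58 and 1.02), whereas S100g was lower (-2.11 and -1.38). The antimicrobial lectins Reg3b and Reg3g had 0.17 and 0.61, and -1.17 and 1.18. Saa3 had -0.52 and 1.02, the chemokines Cxcl1 and Cxcl5 had 1.46 and -0.58, and -0.32 and 1.76, Nfkbiz had 0.66 and 0.37, and Pigr, the carrier of IgA across epithelium, had 0.31 and -0.62.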
